A study of Mus musculus with 120 samples.

Results

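The 4 chains of the CD3 complex and 6 further genes of T cell receptor signalling were followed in single mouse group 2 innate lymphoid cells (ILC2), gene by gene and cell by cell. The 10 genes were Cd3d, Cd3e, Cd3g, Cd247, Cd28, Thy1, Lck, Lat, Zap70 and Rasgrp1, taken by name from 46078 gene identifiers, and all 10 were found. The set was selected on values of these same cells, namely Cd3g counts that differed between activated and pre-stimulation cells, so what follows is a description and supports nothing by itself. The deposited data hold 120 ILC2, recovered while the secretion of 1 cytokine, the index, was imaged. Of them, 60 cells were under an interleukin (IL) 13 index and 60 under an IL-5 index. The cells came from the mesenteric fat of 20 wildtype C57BL/6 mice, pooled, in which lineage-negative cells bearing c-Kit and Sca-1 were sorted as ILC2, and they were kept in culture for several months before use. Donors for such cells were as a rule retired female breeders, with no exact age given, and no cell is tied to a mouse or to a culture. Each index has 6 groups. Pre-stimulation cells (5 per index) were labelled as untreated and all other cells as given IL-2 with IL-33, though the long-term culture medium of all the cells also held IL-2. Transition cells were taken 30, 60 or 90 min after the onset of secretion, activated cells were secreting at a fixed late time and silent cells were not secreting at that time (11 cells in each of these groups per index). Pre-stimulation cells carry the first of 2 title dates of their index, whereas each other group has 5 cells from the first and 6 from the second, and the indexes share no date. For second-date cells, date and state therefore cannot be told apart against pre-stimulation. Because the cells of a group are not shown to come from separate cultures, each group was treated as 1 sample, and no test between groups was made.

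In a T cell, the CD3 gamma, delta, epsilon and zeta chains (Cd3g, Cd3d, Cd3e and Cd247) assemble with the antigen receptor and carry its signal into the cell. The kinase Lck phosphorylates the chains, the kinase Zap70 docks on them and phosphorylates the adaptor Lat, and Lat gathers the enzymes that lead to calcium release and to Ras, the latter through the exchange factor Rasgrp1. Cd28 is a costimulatory receptor, and Thy1 (CD90) is a surface protein of T cells and of innate lymphoid cells. ILC2 respond to IL-33 through the receptor encoded by Il1rl1 and carry no antigen receptor at their surface, while sharing many genes with T cells.

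Reads in genes numbered 31016336, the median cell having 254001 (65 to 785198), and 6 cells held fewer than 84667, the median divided by 3. Levels are CPM (reads scaled to 1000000 gene reads), for a cell or for the summed reads of a group, and because the libraries hold transcript 3′ ends they are not divided by gene length. Where read counts of different genes stand side by side they are counts of reads, not of transcripts. The listed ILC2 markers were held unevenly. Ly6a (Sca-1) had a read in 120 cells, Gata3 in 116, Rora in 114, Il1rl1 and Il2ra in 113 each and Kit in 110. Klrg1 had a read in 92 cells, Icos in 69, Il7r in 46, Arg1 in 22, Areg in 14 and Il17rb in 13. Of 9 listed T cell markers, Cd4, Cd8a, Cd8b1, Cd5 and Cd6 had 0 reads in all 120 cells, while Trbc2 had reads in 98 cells, Trbc1 in 24 and Trac and Trdc in 4 each. No read was found of the listed markers of B cells, of natural killer cells and of stromal and fat cells. Of other lineages, Fcer1a (mast cells) was found in 15 cells, Il22 (ILC3) in 3, Cpa3 in 2, and Il23r and Adgre1 in 1 each. A low count did not always stand alone. Of the 10 genes, 51 gene-cell cases held 1 to 4 reads, and in 35 of them another cell of the same state and title date held 50 reads or more of the gene. Such low counts made up 12.1% of 290 cases beside a cell with 50 or more reads and 1.90% of the 844 other cases. The 844 include the cases of genes with few or no reads in any cell, such as Cd28 with 0, so the 2 shares are not like for like. For Cd3g, 8 of 9 low cells lay beside a cell with 50 or more reads, and the source of the low counts was not tested. Counts of cells are for any read unless a minimum of 5 reads is named.

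Cd3g, Cd3d and Cd3e lie in 1 cluster on mouse chromosome 9 (GRCm38). Cd3g (ENSMUSG00000002033) spans chr9:44969572-44980431 on the minus strand and Cd3d (ENSMUSG00000032094) chr9:44981786-44987339 on the plus strand, their starts 1354 bases apart and facing away from each other. Cd3e (ENSMUSG00000032093) follows at chr9:44998740-45009627 on the minus strand, and the 3 genes together cover 40056 bases. Cd247 (ENSMUSG00000005763) is elsewhere, at chr1:165788681-165877277 on the plus strand. The promoters are shown because the neighbouring genes gave such different read counts below. They are the 250 bases before and the 50 bases from each start (RefSeq, GRCm38.p6, read 5′ to 3′ on the gene's strand), at chr9:44980382-44980681 for Cd3g, chr9:44981536-44981835 for Cd3d, chr9:45009562-45009861 for Cd3e and chr1:165788431-165788730 for Cd247. Capitals mark matches, on either strand, to AGATAA (bound by GATA factors), GGAAGT (bound by ETS factors, ACTTCC on the other strand), TGTGGT (bound by RUNX factors) or TATAAA (the TATA box).
Cd3g: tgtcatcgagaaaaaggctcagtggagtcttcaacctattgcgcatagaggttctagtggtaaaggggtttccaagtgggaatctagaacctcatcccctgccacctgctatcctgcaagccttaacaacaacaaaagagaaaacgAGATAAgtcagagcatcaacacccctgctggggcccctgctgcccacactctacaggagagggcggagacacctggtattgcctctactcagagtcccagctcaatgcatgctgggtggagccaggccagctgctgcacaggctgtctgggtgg
Cd3d: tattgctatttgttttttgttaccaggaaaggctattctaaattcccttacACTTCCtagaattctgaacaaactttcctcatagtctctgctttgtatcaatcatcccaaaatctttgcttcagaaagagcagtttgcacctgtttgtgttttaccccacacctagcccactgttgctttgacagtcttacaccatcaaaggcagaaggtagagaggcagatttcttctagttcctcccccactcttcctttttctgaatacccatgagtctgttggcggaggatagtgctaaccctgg
Cd3e: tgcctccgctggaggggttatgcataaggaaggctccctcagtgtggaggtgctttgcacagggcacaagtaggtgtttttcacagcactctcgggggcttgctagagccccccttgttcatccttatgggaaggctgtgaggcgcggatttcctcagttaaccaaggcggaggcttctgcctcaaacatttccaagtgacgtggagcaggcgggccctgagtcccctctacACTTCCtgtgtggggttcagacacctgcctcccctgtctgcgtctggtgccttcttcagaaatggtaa
Cd247: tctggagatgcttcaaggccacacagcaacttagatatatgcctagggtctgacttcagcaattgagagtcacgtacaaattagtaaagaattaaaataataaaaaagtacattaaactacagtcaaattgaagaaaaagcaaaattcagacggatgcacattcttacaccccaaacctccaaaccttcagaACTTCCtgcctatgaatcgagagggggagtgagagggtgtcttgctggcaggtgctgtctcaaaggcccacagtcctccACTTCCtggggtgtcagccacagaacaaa
The Cd3g promoter held 1 match, to AGATAA, at -104 to -99 with the start base counted as 0. Cd3d held 1 match to GGAAGT at -199 to -194, Cd3e 1 at -18 to -13 and Cd247 2, at -58 to -53 and 21 to 26. TGTGGT and TATAAA had 0 matches in these 4 windows. Of all 32851 promoter windows of this length, 11.2% held AGATAA, 23.8% GGAAGT, 16.8% TGTGGT and 13.6% TATAAA. A match is a description of the letters, not a site.

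Cd3g was the CD3 chain gene that these cells held. It had 5478 reads in 26 of the 120 cells, of which 17 cells held at least 5 reads, and it made up 94.2% of the reads of the 4 chain genes. Its level in the 26 cells ran from 2.42 to 4034 CPM with a median of 435. Cd3d had 228 reads in 4 cells, Cd247 103 reads in 2 cells and Cd3e 9 reads in 3 cells. Cd28 had 0 reads in all 120 cells. By an upper limit of 3 cells, not by an exact binomial interval, up to 2.5% of cells could hold a read. Intervals and limits given here cover counting error only, because reads were not counted by molecule. Part of Cd3e overlaps 2 annotated transcripts that the files do not list, and the 3′ end of Cd247 overlaps Pou2f1 on the other strand (682 reads in all cells). The strand setting of the counting is not given in the sources used here, so reads of Cd247 and Cd3e are uncertain.

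The cells that held the minor chains can be listed in full. Cd3d was found in IL-13 transition cells at 30 min, with 100 reads in replicate 4, 88 in replicate 8 and 1 in replicate 11, and in IL-13 silent replicate 4, with 39 reads. None of the 3 transition cells with Cd3d was one of the 2 cells of that group with Cd3g, replicate 3 with 146 reads and replicate 9 with 335. Cd247 was found in IL-5 transition cells only, with 68 reads in replicate 5 at 30 min and 35 in replicate 9 at 60 min. Cd3e had 7 reads in IL-13 silent replicate 2, 1 in IL-13 silent replicate 3 and 1 in IL-5 replicate 9 at 90 min. In the map of the 10 genes over the cells, the rows of Lat, Thy1 and Zap70 are the fullest, that of Cd3g is filled in 26 of 120 cells, and those of the other chains are nearly empty.

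**Figure D1:**
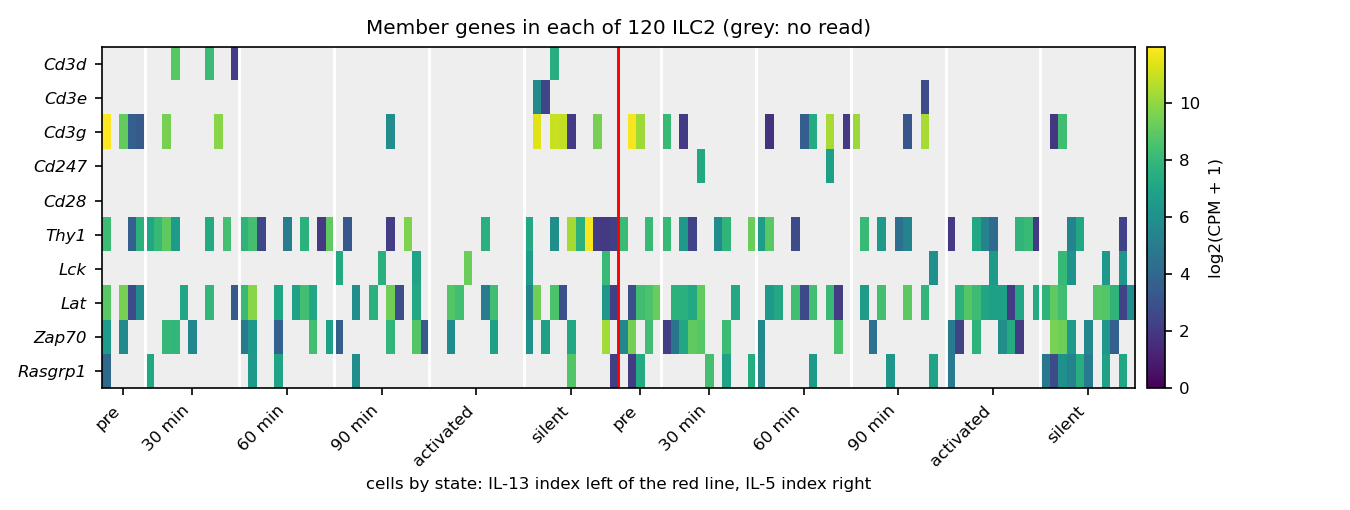
Level of the 10 genes, log2(CPM + 1), in each of the 120 cells, with cells in columns by index and state and grey for no read. Cd3g is grey in all 22 activated cells, Cd28 in all 120 cells, and Lck in all pre-stimulation, 30 min and 60 min cells.

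Few cells held more than 1 chain. A read of at least 1 chain gene was found in 31 of 120 cells (25.8%, exact binomial 95% interval 18.3 to 34.6), of which 27 held 1 chain and 4 held 2. No cell (0 of 120) held 3 or 4 chains, which allows a share of up to 2.5% by the 1-sided limit of 3 cells, not the interval above. All 4 cells with 2 chains held Cd3g as one of them. IL-5 replicate 9 at 60 min had 422 reads of Cd3g and 35 of Cd247, IL-13 silent replicate 4 had 454 of Cd3g and 39 of Cd3d, IL-13 silent replicate 2 had 384 of Cd3g and 7 of Cd3e, and IL-5 replicate 9 at 90 min had 236 of Cd3g and 1 of Cd3e. Of the 26 cells with Cd3g, Cd3d was found in 3.85%, against 3 of the 94 cells without Cd3g, Cd247 in 3.85%, against 1.06% of the cells without, and Cd3e in 7.69%, against 1 of the 94. In the other direction, Cd3g was found in 25% of the 4 cells with Cd3d, 66.7% of the 3 with Cd3e and 50% of the 2 with Cd247. Of all 120 cells, 21.7% held Cd3g. With at least 5 reads required, 20 cells (16.7%) held a chain and 3 (2.5%) held 2. After each cell was thinned to 100000 gene reads, which kept 113 cells, 26 cells held a chain and 3 held 2.

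Chains were found by state in 6 of 10 pre-stimulation cells (60%, interval 26.2 to 87.8), 17 of 66 transition cells (25.8%, interval 15.8 to 38.0), 8 of 22 silent cells (36.4%, interval 17.2 to 59.3) and 0 of 22 activated cells (interval 0 to 15.4). With at least 5 reads required, Cd3g was in 4 of 10 pre-stimulation, 8 of 66 transition, 5 of 22 silent and 0 of 22 activated cells. On the first title date it had a read in 6 of 10 pre-stimulation and 5 of 10 silent cells. Median gene reads per cell were 266402 and 325825 in activated cells of the IL-13 and IL-5 index, and 168778 and 264798 in the pre-stimulation cells. Thinned to 100000 reads, Cd3g was found in 6 of 10 pre-stimulation, 10 of 60 transition, 0 of 22 activated and 6 of 21 silent cells. At that depth the median number of genes detected was 2960.5 in activated and 2211 in pre-stimulation cells. Among the silent cells, 6 of 11 in the IL-13 index and 2 of 11 in the IL-5 index held a chain.

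**Figure D2:**
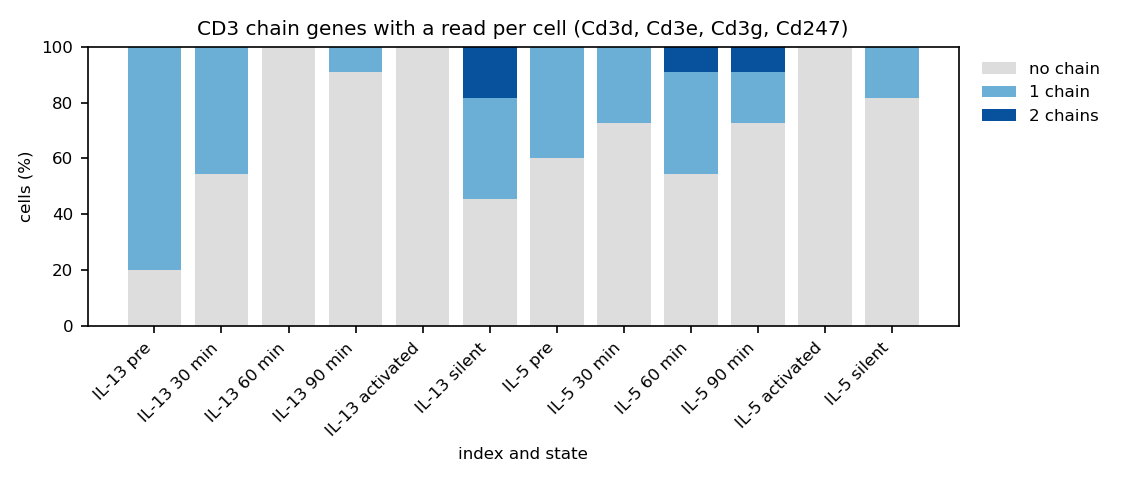
Percent of the cells of each group with a read of 0, 1 or 2 of the 4 CD3 chain genes (5 cells in each pre-stimulation bar and 11 in each other bar). The IL-13 60 min bar and both activated bars are grey to the top (0 of 11 cells each), and 2 chains appear in IL-13 silent and in IL-5 60 and 90 min cells.

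Over both title dates Cd3g was highest in pre-stimulation cells of both indexes, though in the IL-13 index this rests on replicate 1 (132 CPM without it). In the IL-13 index the 5 pre-stimulation cells held 993, 0, 91, 2 and 2 reads, a group level of 1128 CPM (exact Poisson 95% interval 1062 to 1197). In the IL-5 index 2 of the 5 cells held all the reads, 1117 and 332, and the group level was 1195 CPM (1135 to 1259). These 2 levels do not differ beyond their counting intervals, and in each index 1 cell dominated, with 91.3% of the reads in IL-13 replicate 1 and 77.1% in IL-5 replicate 2.

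After stimulation, the IL-13 transition cells held Cd3g at 180 CPM (164 to 196, 2 of 11 cells) when taken at 30 min. No read was found at 60 min (0 of 11 cells, where 3 reads would make 0.980 CPM), and 16 reads in 1 cell made 9.61 CPM (5.49 to 15.6) at 90 min. The IL-5 transition cells began at 20.3 CPM (15.9 to 25.5) after 30 min, from 71 reads in replicate 1 and 1 in replicate 3. At 60 min, 5 cells with 131, 422, 2, 1 and 1 reads made 163 CPM (150 to 177). At 90 min, 3 cells with 155, 236 and 1 reads made 214 CPM (194 to 237). Over both title dates, 30 min was the highest of the 3 times in the IL-13 index and the lowest in the IL-5 index. Both indexes were higher at 90 than at 60 min, each level resting on 0 to 5 cells. Within dates the IL-5 order differed, with 46.4, 0.655 and 183 CPM at 30, 60 and 90 min on the first. The second date had 0, 294 and 241 CPM. IL-13 cells of the first date held 0 reads at 60 and at 90 min.

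Activated cells held 0 Cd3g reads in all 22 cells, where 3 reads would make 0.939 CPM (IL-13) and 0.804 CPM (IL-5). Silent cells, stimulated as long but not secreting, held 505 CPM (478 to 533) in the IL-13 index, from 384, 454, 279, 218 and 1 reads in 5 of 11 cells, and 28.4 CPM (22.7 to 35.0) in the IL-5 index, from 86 and 1 reads in 2 of 11 cells. From high to low the IL-13 order was pre-stimulation, silent, 30 min, 90 min, and then 60 min and activated, both at 0. The top of that order is not firm, since on the first title date silent cells were at 1223 CPM against 1128 CPM before stimulation, and without pre-stimulation replicate 1 that group lay below silent and 30 min cells. The IL-5 order over both title dates was pre-stimulation, 90 min, 60 min, silent, 30 min and activated, and the intervals of silent and 30 min overlap. On the first date 60 min cells, at 0.655 CPM, lay below silent (53.8 CPM) and 30 min cells (46.4 CPM). On the second, 60 min cells (294 CPM) lay above 90 min cells (241 CPM).

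**Figure D3:**
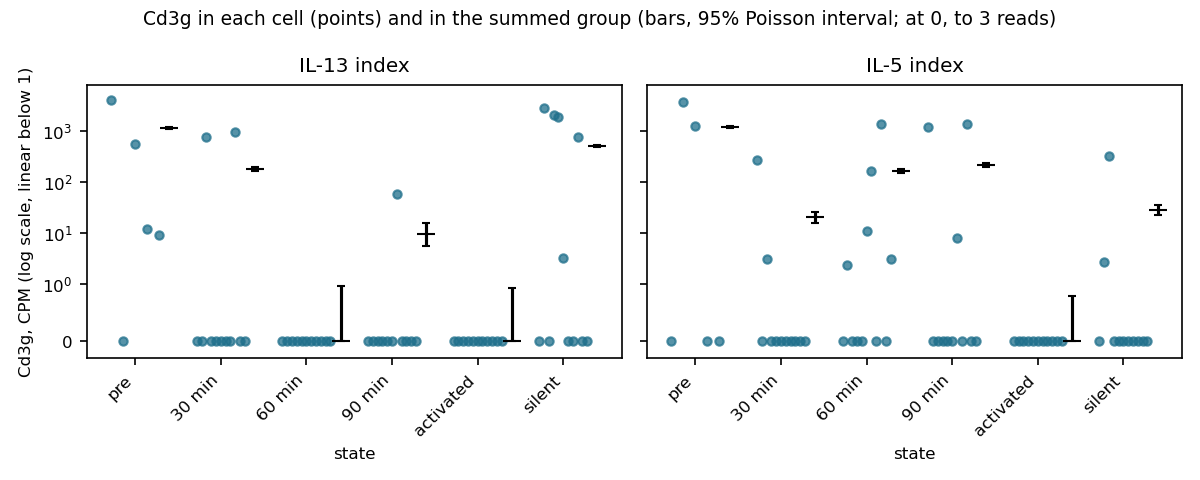
Cd3g level in CPM (vertical axis, log scale that is linear below 1) in each cell (points) of each state, with the level of the summed group and its exact 95% Poisson interval, or, at 0 reads, the level of 3 reads (black bars), for the IL-13 index at left and the IL-5 index at right. All activated cells lie at 0, and the top 2 points are pre-stimulation cells, at 4034 and 3643 CPM.

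Ratios of the summed groups put sizes to these levels. All ratios to pre-stimulation of 1 index share the same 5 cells. Against pre-stimulation, Cd3g of the IL-13 activated group was lower by at least 1201-fold (0 reads against 1088, with 0 set to a floor of 3 reads per group) and that of the IL-5 activated group by at least 1487-fold (0 against 1449). Without the 1 cell that held most reads, the log2 ratio to the floor was -7.14 in place of -10.23 (IL-13, without pre-stimulation replicate 1) and -8.83 in place of -10.54 (IL-5, without pre-stimulation replicate 2). IL-13 replicate 1 also stood apart in cell division genes, with a summed level of 10332 CPM over 8 markers where the median of its group was 18.5, and it held 3924 genes after thinning, the most of the 113 thinned cells. The part of division in the result was not tested. The other Cd3g-rich pre-stimulation cell, IL-5 replicate 2, held 104 CPM of the division markers.

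In silent cells the ratio to pre-stimulation depended on the index and on single cells. The Cd3g log2 ratio was -1.16 (counting interval -1.28 to -1.04) in the IL-13 index and became 1.93 without pre-stimulation replicate 1. In the IL-5 index it was -5.40 (-5.73 to -5.08), ranging from -10.12 without silent replicate 3 to -3.69 without pre-stimulation replicate 2. At 30 min it was -2.65 (-2.81 to -2.49) in the IL-13 index and 0.44 without pre-stimulation replicate 1, and -5.88 (-6.24 to -5.54) in the IL-5 index, where leaving out 30 min replicate 1 gave -10.36 and leaving out pre-stimulation replicate 2 gave -4.18. Without IL-13 30 min replicate 9 the IL-13 value was -4.16. Adding the other chains moved the IL-13 30 min value to -2.17, since Cd3d went from 0 reads before stimulation to 189 at 30 min, at least 22.7-fold higher (11.6-fold without 30 min replicate 4), while Cd3g was lower. With Cd247, the IL-5 30 min value of the summed chains was -4.92.

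The comparison of activated with silent cells does not rest on the pre-stimulation cells. It does use the Cd3g counts of activated cells, on which the set was selected, and is a description too. Cd3g was at least 537-fold lower in activated cells in the IL-13 index (0 reads against 1336) and at least 35.3-fold lower in the IL-5 index (0 against 87). On the log2 scale these are -9.07, with a range of -9.26 to -8.60 on leaving out any 1 cell, and -5.14. In the IL-5 index 86 of the 87 reads came from silent replicate 3, and without it no ratio can be given. Within the title dates, the IL-13 silent cells held 1117 reads on the first date and 219 on the second and the activated cells 0 on both, while the IL-5 silent cells held 87 reads on the first date and 0 on the second. What the title dates stand for is not given in the sources used here.

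The 17 cells with at least 5 Cd3g reads held ILC2 markers. All 17 held Gata3 (the transcription factor of type 2 lymphocytes), at 33.2 to 3741 CPM with a median of 770, against a median of 670 CPM in the 97 other cells of sufficient depth. The 12 ILC2 markers summed to 3210 to 18903 CPM in them, with a median of 9989, against a median of 8601. A read of a T cell receptor constant gene was found in 16 of the 17 and in 89 of the 97. The T cell markers summed to a median of 590 CPM in the 17 and 355 CPM in the 97, and among silent cells to 1208 CPM in 5 and 173 CPM in 16. Their part in the Cd3g levels was not tested. Genes detected after thinning had medians of 2449 and 2392.5.

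Cytokine transcripts were present in the stimulated cells with Cd3g. Of the 8 transition cells with at least 5 Cd3g reads, 7 held Il13 (median 526 CPM, up to 4448) and 8 held Il5 (median 1252 CPM). The 53 other transition cells had medians of 875 CPM for Il13 and 1687 CPM for Il5. IL-13 replicate 9 at 30 min, for example, held 335 reads of Cd3g beside 3530 CPM of Il13, and IL-5 replicate 9 at 60 min held 422 reads beside 4448 CPM. Of the 5 silent cells with at least 5 Cd3g reads, the 1 from the IL-5 index held Il13 at 955 CPM. The other 4, from the IL-13 index, held 0 reads of it, but that index chose its silent cells for not secreting IL-13. All 22 activated cells held Il13 and Il5, with medians of 745 and 884 CPM.

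Of the surface genes, Cd28 was not found, and Thy1 (chr9:44043384-44048579, plus strand) was held by 53 of 120 cells, 39 of them with at least 5 reads, in every group. Its highest group level was 522 CPM (495 to 550) in IL-13 silent cells, where replicate 8 held 877 reads and replicate 6 held 394 of 1382. The IL-13 pre-stimulation cells stood at 123 CPM (102 to 148) and the transition cells at 121, 132 and 119 CPM at 30, 60 and 90 min, levels whose counting intervals overlap. At 90 min 197 of the 199 reads were in replicate 9, and the other cells held 2. IL-13 activated cells had 24.7 CPM (19.6 to 30.8), all 79 reads from replicate 7, against 60.8 CPM (53.2 to 69.3) over 7 cells in the IL-5 activated group.

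Thy1 ratios rested on few cells. The ratio of IL-13 activated to pre-stimulation cells was -2.32 on the log2 scale (-2.75 to -1.90), -1.40 without pre-stimulation replicate 1 and -6.84 without activated replicate 7. In IL-13 silent cells the ratio was 2.08 (1.81 to 2.36), 0.76 without silent replicate 8 and 3.00 without pre-stimulation replicate 1. On the first title date alone it was -1.42, and silent cells were at 46.0 CPM on the first date and 773 CPM on the second. In the IL-5 index, silent cells were at 20.6 CPM (15.8 to 26.3) against 95.7 CPM (79.1 to 115) before stimulation, a log2 ratio of -2.22 (-2.69 to -1.76) that became -1.01 without pre-stimulation replicate 4 and -4.32 without silent replicate 5.

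Lck (chr4:129548344-129573641, minus strand), the kinase that acts on the CD3 chains, was found late only. It had 0 reads in all 10 pre-stimulation cells and in all 44 transition cells taken at 30 and 60 min. At 90 min, 3 IL-13 cells held 14, 30 and 24 reads (40.8 CPM, interval 31.7 to 51.8) and 1 IL-5 cell held 12. Activated cells held it in 1 cell per index, with 147 reads in IL-13 replicate 5 and 42 in IL-5 replicate 6. Silent cells held it in 2 IL-13 cells (18 and 86 reads, 39.3 CPM, 32.1 to 47.6) and 4 IL-5 cells (70, 21, 33 and 18 reads, 46.3 CPM, 39.0 to 54.6). All 12 cells with Lck held at least 5 reads.

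Against 0 reads before stimulation, Lck was at least 12.6-fold higher in IL-13 silent cells, at least 18.7-fold higher in IL-5 silent cells and at least 14.8-fold higher in IL-13 activated cells, the last from 1 cell. The IL-13 silent value rests on replicate 10, which held 86 of the 104 reads and without which the log2 ratio was 1.32, inside 4-fold, in place of 3.66. The IL-5 silent log2 ratio of 4.23 was 3.38 without replicate 3. Only 1 cell, IL-5 silent replicate 3, held both Lck (70 reads) and Cd3g (86 reads). Of the 26 cells with Cd3g, 3.85% held Lck, against 11.7% of the 94 cells without it.

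Zap70 (chr1:36761798-36782818, plus strand), the kinase that docks on phosphorylated CD3 chains, was held by 44 cells, 36 of them with at least 5 reads. The IL-5 pre-stimulation cells held 260 CPM (232 to 290), from 218, 91 and 6 reads in 3 of 5 cells. Transition cells held 137 CPM (125 to 150) when taken at 30 min, 35.4 CPM (29.4 to 42.3) after 60 min and 2.19 CPM (0.596 to 5.6) after 90 min, the last from 4 reads in 1 cell. Activated cells stood at 41.3 CPM (35.0 to 48.3) and silent cells at 169 CPM (154 to 184). Single cells and dates moved these levels by more than counting did. At 60 min replicate 10 held 109 of the 121 reads, and the level was 3.83 CPM without it. Silent cells were at 293 CPM on the first title date and 29.7 CPM on the second.

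In the IL-13 index the order differed. Zap70 was at 32.1 CPM (21.8 to 45.6) before stimulation, 41.5, 64.7 and 91.9 CPM at 30, 60 and 90 min (11.1, 24.3, 26.2 and 46.8 CPM without the top cell of each), 15.0 CPM (11.1 to 19.9) in activated cells and 185 CPM (169 to 202) in silent cells, where replicate 10 held 412 of 490 reads. At 90 min the level was 2.31 CPM on the first title date and 123 CPM on the second, so no order over time can be read from these levels. Against silent cells, the Zap70 log2 ratios of activated cells were -3.62 (-4.08 to -3.19, IL-13) and -2.03 (-2.30 to -1.77, IL-5). Without IL-13 silent replicate 10 the first was -1.16, and without IL-5 silent replicate 2 the second was -1.13, both inside 4-fold. The IL-5 direction turned on the second title date, with 36.3 CPM in activated and 29.7 CPM in silent cells, against 47.9 and 293 CPM on the first. The silent to pre-stimulation ratio in the IL-13 index, 2.53 (2.00 to 3.10), was 0.06 without silent replicate 10. Against pre-stimulation, the IL-5 activated ratio was -2.65 (-2.94 to -2.37), and -1.38 without pre-stimulation replicate 2.

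Lat (chr7:126363824-126369570, minus strand), the adaptor that Zap70 phosphorylates, was the most widely held gene of the 10, in 65 cells of all 12 groups, 53 with at least 5 reads. Levels were 258 CPM (227 to 292) and 270 CPM (241 to 301) in the IL-13 and IL-5 pre-stimulation cells, which do not differ beyond counting. Over both title dates the stimulated groups ran from 40.0 CPM (32.8 to 48.3) in IL-13 30 min cells to 201 CPM (185 to 217) in IL-5 silent cells. On the first date, the one that pre-stimulation cells share, IL-13 60 min cells were at 308 CPM, above pre-stimulation, and IL-5 30 min cells at 259.5 CPM, close to it. Of all groups the reads were the most evenly spread in activated cells of the IL-5 index. IL-5 activated cells held Lat in 9 of 11 cells, with 42 to 149 reads in 8 of them and 1 read in the other. In the IL-13 index, 1 cell held 77.4% of the reads at 90 min (39.7 CPM without it) and 69.2% at 30 min (13.9 CPM without it).

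The log2 ratio of Lat to pre-stimulation was past 4-fold at IL-13 30 min (-2.69, interval -3.03 to -2.36), was -4.21 without 30 min replicate 8, and stayed past 4-fold on leaving out any 1 cell. It was -1.43 and -0.92 in activated cells and -1.66 and -0.43 in silent cells of the IL-13 and IL-5 index. Each of these 4 was inside 4-fold, and its sign held on leaving out any 1 cell, though the IL-13 silent ratio became -2.42, past 4-fold, without silent replicate 2.

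Rasgrp1 (chr2:117279993-117343001, minus strand), which activates Ras below Lat, was held by 25 cells, 20 with at least 5 reads, and was most widely held in IL-5 silent cells. IL-5 silent cells held it in 8 of 11 cells, with 63, 47, 31, 17, 12, 9, 5 and 2 reads (60.7 CPM, interval 52.3 to 70.0). IL-13 silent cells held it at 51.0 CPM (42.8 to 60.4), 134 of 135 reads in replicate 6. Activated cells held 0 reads in the IL-13 index and 10 reads in 1 cell (2.68 CPM, 1.28 to 4.93) in the IL-5 index. IL-5 30 min cells were at 68.4 CPM (60.1 to 77.6) from 117, 80 and 46 reads in 3 cells.

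Rasgrp1 of activated cells was lower than that of silent cells by at least 54.3-fold in the IL-13 index. For IL-5 the log2 ratio was -4.50 (-5.58 to -3.59), and lay between -6.11 (without activated replicate 1) and -4.08 when any 1 cell was left out. The IL-13 value rests on silent replicate 6, which held all but 1 of the reads. Against pre-stimulation the IL-5 silent ratio was 0.74 (0.26 to 1.25), where 43 of the 44 pre-stimulation reads were in replicate 3, and 4.26, to the floor, without that cell. The IL-5 activated ratio to pre-stimulation, -3.76, rests on the same cell. Without it 1 pre-stimulation read remained (1.06 CPM), below the 2.68 CPM of activated cells and under the floor.

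Of the other genes, Lat was the one whose share differed most between cells with and without Cd3g. Lat was found in 19 of the 26 cells with Cd3g (73.1%, against 48.9% of the 94 others), Thy1 in 12 (46.2% against 43.6%), Zap70 in 10 (38.5% against 36.2%) and Rasgrp1 in 7 (26.9% against 19.1%). Of the 12 cells with Lck, 58.3% held Zap70, against 34.3% of the cells without Lck. These cells share states and title dates, and no test was made of the shares.

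Counted together, the 10 genes are set beside all genes of the same comparison, for genes whose 2 group levels averaged 10 CPM or more, with a log2 ratio past 2 (4-fold) as the call. In activated against pre-stimulation cells of the IL-13 index, 5 of the 10 passed the level filter. Cd3g and Thy1 were lower, where 23.6% of all 5763 genes were, and Lck was higher, where 27.9% were. In the IL-5 index 5 passed, and Cd3g, Zap70 and Rasgrp1 were lower (background 24.7%) and 0 were higher (28.9%). Without the cell that held most Cd3g in each pre-stimulation group, 1 and 2 genes were lower in place of 2 and 3.

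In silent against pre-stimulation cells of the IL-13 index, 6 passed, 0 were lower (background 18.2%) and 4 were higher (32.9%): Thy1, Lck, Zap70 and Rasgrp1. Each of the 4 rests on 1 silent cell, with log2 ratios of 0.76 (Thy1, without replicate 8), 1.32 (Lck) and 0.06 (Zap70, both without replicate 10) and, with silent cells at the floor, -1.70 (Rasgrp1, without replicate 6). Of the silent cells of the IL-5 index, 6 passed, with Cd3g and Thy1 lower (21.5%) and Lck higher (30.3%). At 30 min, Cd3g and Lat were lower (22.8%) and Cd3d higher (28.5%) in the IL-13 index, and Cd3g was lower (21.5%) and none (0) higher (29.9%) in the IL-5 index, each of 5 that passed.

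Activated cells were lower than silent cells in 4 of 6 genes that passed in each index, and 0 of 6 were higher. In the IL-13 index these were Cd3g, Thy1, Zap70 and Rasgrp1, where 24.4% of 6262 genes were lower and 14.3% higher. In the IL-5 index they were Cd3g, Lck, Zap70 and Rasgrp1, where 16.3% of 5979 genes were lower and 10.9% higher. With edgeR TMM factors or DESeq2 size factors 2 of the IL-5 genes stayed past 4-fold. On leaving out any 1 cell the number lower ranged from 3 to 5 (IL-13) and from 1 to 4 (IL-5), and 1 gene became higher without IL-13 silent replicate 10 (Lck, 2.57) or IL-5 silent replicate 5 (Thy1, 3.66). For IL-5, Rasgrp1 alone stayed past 4-fold without silent replicate 3. The IL-5 ratio of Lck was -2.04 (-2.57 to -1.54), and -1.19 without that cell.

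**Figure D4:**
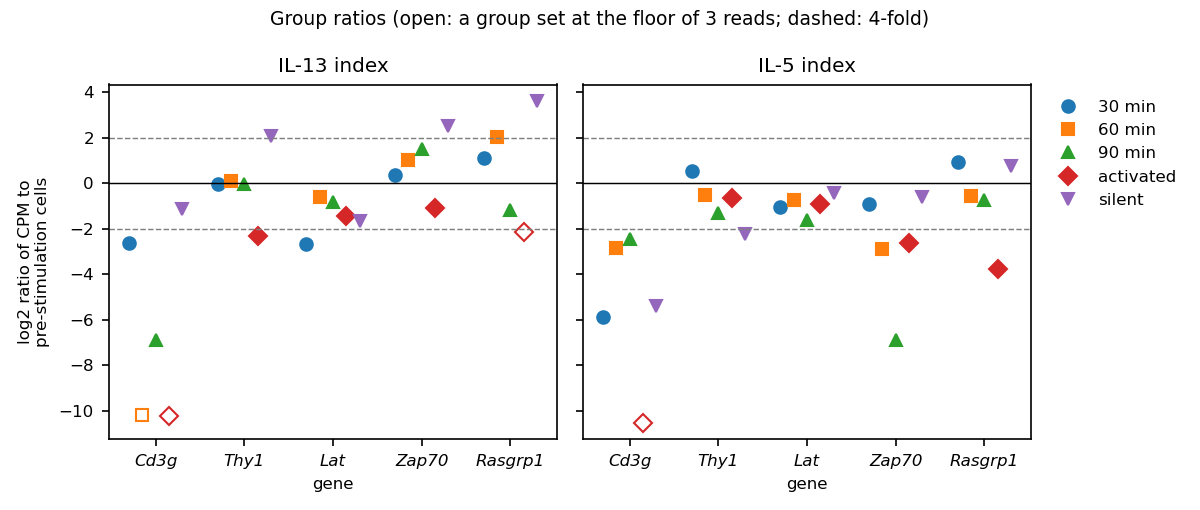
Log2 ratio of the summed CPM of each stimulated group to the pre-stimulation cells of its index (vertical axis) for 5 genes, with 1 symbol per state, dashed lines at 4-fold and open symbols where a group was set to the floor of 3 reads. Cd3g lies below 0 in all 10 ratios, while Thy1, Zap70 and Rasgrp1 lie on both sides of 0, and Rasgrp1 in IL-13 cells had 4 pre-stimulation reads.

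Of 7 antigen receptor constant genes, 3 and 4 passed the level filter in activated against pre-stimulation cells of the IL-13 and IL-5 index, with 1 and 2 lower and 0 higher (2 and 3 lower without the cell that held most Cd3g), where 23.6% and 24.7% of all genes were lower and 27.9% and 28.9% higher. Trbc2, a beta chain constant gene, was held by 98 of 120 cells and in all 12 groups, at 262 to 1362 CPM. Its log2 ratio of activated to pre-stimulation cells was -0.39 (IL-13) and -0.95 (IL-5). Without pre-stimulation replicate 2 the first turned to 0.11, and the second turned to 0.43 without pre-stimulation replicate 3. Trac (alpha) and Trdc (delta) were each found in 4 cells. Of the gamma chain constant genes, Tcrg-C4 was at 374 and 328 CPM before stimulation in the IL-13 and IL-5 index and at 11.3 and 23.8 CPM after activation. The log2 ratio was -5.05 in the IL-13 index, between -8.50 (without activated replicate 4) and -3.56 (without pre-stimulation replicate 2) when 1 cell was left out. For IL-5 it was -3.78, between -5.32 (without activated replicate 11) and -2.22 (without pre-stimulation replicate 5). Tcrg-C1 was at 18.7 and 438 CPM in IL-13 and IL-5 pre-stimulation cells and at 526 and 4.57 CPM in the silent cells, opposite in order between the indexes. This order rests on few cells. The highest silent cell held 4106 CPM, and without replicate 2 the IL-13 pre-stimulation group lay at or under the floor. Tcrg-C1 had 0 reads in all 22 activated cells. In the 13 stimulated cells with at least 5 Cd3g reads Tcrg-C1 had 0 reads, and it was found in only 11 of the 91 others of sufficient depth. Tcrg-C4 was found in 4 of these 13 and 32 of these 91 cells. Near-identical copies of the beta and of the gamma constant genes can share reads, so these values are uncertain. The 9 T cell markers that include Trac, Trbc1, Trbc2 and Trdc summed to 612 and 689 CPM in pre-stimulation, 515 and 330 CPM in activated and 592 and 588 CPM in silent cells of the 2 indexes, with Cd4, Cd8a, Cd8b1, Cd5 and Cd6 at 0.

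Of 31 kinases, adaptors and phosphatases next to the receptor, 15 passed the level filter in activated against pre-stimulation cells of the IL-13 index, with 6 lower and 2 higher, and 18 in the IL-5 index, with 9 lower and 2 higher. Over all genes, 23.6% and 24.7% were lower and 27.9% and 28.9% higher. The median log2 ratio was -1.92 and -1.999, against 0.05 and -0.11 over all genes. Skap1, an adaptor of integrin activation in T cells, was lower in both indexes, at 877 and 1059 CPM before stimulation and 99.0 and 37.8 CPM in activated cells, with log2 ratios of -3.15 and -4.81. These stayed past 4-fold when any 1 cell was left out, reaching -4.28 without IL-13 activated replicate 10 and -5.64 without IL-5 activated replicate 5. Sla, an adaptor that dampens receptor signals, was at -2.93 and -7.91, but the second was -0.82 without IL-5 pre-stimulation replicate 2. Fyb, a partner of Skap1, had ratios of -0.71 and -3.48, the first turning to 0.31 without IL-13 pre-stimulation replicate 3. Lcp2 (SLP-76), which joins Lat in signalling, had ratios of -2.10 and 1.21, the first being -0.82 without IL-13 pre-stimulation replicate 5 and the second 5.87 without IL-5 pre-stimulation replicate 3. Syk, Sh2d1a, Themis, Themis2 and Trat1 had 0 reads in all cells. Without the cell that held most Cd3g, the counts lower were 6 of 14 and 8 of 16.

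Of 22 downstream signalling genes, 13 passed in the IL-13 index, with 7 lower and 3 higher, and 14 in the IL-5 index, with 6 lower and 6 higher, beside the same 23.6% and 24.7% lower and 27.9% and 28.9% higher of all genes. Lower in both indexes were Prkcq (protein kinase C theta), Dgka (a diacylglycerol kinase), Itpkb (an inositol trisphosphate kinase) and Stim1 (the calcium store sensor). Prkcq was at 108 and 195 CPM before stimulation and had 0 reads in both activated groups, and its IL-5 log2 ratio of -7.92 was -2.32 without pre-stimulation replicate 5. Dgka was at 159 and 120 CPM before stimulation and 2.82 and 0 CPM after, and stayed past 4-fold on leaving out any 1 cell. Itpkb in the IL-13 index was at -5.39, and at -2.42 without pre-stimulation replicate 2. Its IL-5 value rests on pre-stimulation replicate 2, and the Stim1 values on pre-stimulation replicate 5 (IL-13) and 2 (IL-5), without which neither group exceeded the floor and no ratio can be given. Rasa2, a negative regulator of Ras, was higher in both, from 0 reads to 20.0 and 36.2 CPM, and its floored log2 ratio of 2.69 in the IL-13 index was 1.69 without activated replicate 7. The genes of the list with the most reads per group were Ppp3ca, Orai1 and Nras. Ppp3ca, a calcineurin subunit, was at 549 and 158 CPM before stimulation and 25.1 and 43.4 CPM in activated cells, and its IL-13 log2 ratio of -4.45 was -1.89 without pre-stimulation replicate 3. Nras, a Ras protein, was at 326 and 0 CPM before stimulation and 173 and 30.3 CPM in activated cells, and its IL-13 log2 ratio of -0.91 turned to 0.53 without pre-stimulation replicate 3. Orai1, the calcium channel that Stim1 opens, peaked in transition cells, at 474 CPM in IL-13 60 min and 440 CPM in IL-5 90 min cells, against 0 and 13.2 CPM before stimulation and 13.2 and 65.9 CPM in activated cells. Its log2 ratios of activated to pre-stimulation cells were 2.08 and 2.32, with 0.80 without IL-13 activated replicate 1 and 4.31 without IL-5 pre-stimulation replicate 2.

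Of 20 costimulatory and T cell surface genes, 15 and 14 passed, with 4 lower and 5 higher in the IL-13 index and 2 lower and 6 higher in the IL-5 index. The shares lower were near or under those of all genes (23.6% and 24.7%), and 27.9% and 28.9% of all genes were higher. Cd44 (an adhesion receptor) was at 24.9 and 4.95 CPM before stimulation and 227 and 297 CPM in activated cells, log2 ratios of 3.19 and 5.91. Tnfrsf9 (4-1BB) had 0 and 28.9 CPM before and 260 and 491 CPM after. Both stayed past 4-fold on leaving out any 1 cell. Tnfrsf4 (OX40) had 0 CPM in both pre-stimulation groups and 51.0 and 68.3 CPM in the activated groups, where the IL-5 log2 ratio of 4.79 rests on activated replicate 4, without which both groups lay under the floor. Cd96 and Cd27 were lower in both indexes, though Cd96 in the IL-13 index was at 0.32 without pre-stimulation replicate 3, and Cd27 rests on pre-stimulation replicate 2 in each index, without which no ratio can be given. Cd52, Tnfrsf18 and Il2ra, which had the highest mean CPM of the list, had log2 ratios of 0.68, -0.61 and 1.59 in the IL-13 and 1.20, 0.88 and 3.59 in the IL-5 index, and Il2ra in the IL-13 index was at 2.02 without pre-stimulation replicate 4. Ctla4, Cd5 and Cd6 had 0 reads in all cells. Cd28 was thus 1 of several T cell surface genes not found here.

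Genes with a pattern like that of the summed CD3 chains were ranked by Pearson's r of log2(CPM + 1) over the 12 groups, among 2657 genes averaging 50 CPM or more. The 5 nearest were Sat1 (r = 0.924), which acetylates polyamines, Srpk2 (0.920), a kinase of splicing factors, Laptm5 (0.899), a lysosomal protein of blood cells, Lpar6 (0.885), a lysophosphatidic acid receptor, and Acot13 (0.868), a thioesterase. The 99th percentile over all ranked genes was 0.742 and the median -0.11. Srpk2 had 0 reads in IL-13 60 min cells and in both activated groups, the groups in which Cd3g had 0 reads. Laptm5 was at 410 and 852 CPM before stimulation and 118 and 151 CPM in activated cells. Each point is the same group of cells for both genes, so these values are descriptions.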

How the data were processed

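Single cells were sequenced as 3′ libraries (SMART-Seq v4 3′ DE, no molecular identifiers), 1 library per cell. Each deposited file lists raw counts of reads by gene. The authors obtained them by aligning reads to GRCm38 with TopHat (TopHat2 in the submitters' processing notes) and counting with HTSeq. Versions, annotation release and strand setting are not given in the sources used here. Of alignments, 62.0% lay in genes, 7.42% in no feature, 1.86% were ambiguous and 28.7% not unique, and rows naming no gene were left out. Symbols were matched for 45143 of 46078 identifiers.

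Groups came from source names and titles. Reads of a group's cells were added up and expressed as CPM with exact 95% Poisson intervals. Log2 ratios used a floor of 3 reads per group and the exact binomial (Clopper-Pearson) interval of the split of reads. A call was a ratio past 4-fold among genes with a mean of at least 10 CPM. The members and gene lists were chosen with earlier results of these data known. Named pathway genes were the 3 of each list with the highest mean CPM and those past 4-fold in the same direction in both indexes. The ratios were tested on simulated data with a milder spread between cells than here, which cannot show how ratios that rest on 1 cell behave. Computing was done in Python 3.11.15 (scipy 1.17.1, numpy 2.4.6, pandas 2.3.3; plots in matplotlib 3.10.9). Alternative scaling factors came from DESeq2 1.42.0 and edgeR 4.0.16 under R 4.3.3, with no test of either. The alternatives tried are given at the end, and the list counts without the pre-stimulation cell richest in Cd3g were added after seeing the data. One listed marker gene is not reported here.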

Additional observations from a re-analysis of the deposited data

Results flagged for a closer look

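The pre-stimulation groups, with 5 cells each, were checked for a cell far from the other 4, on log2(CPM + 1) of each member and of the summed CD3 chains, by Dixon's ratio of the gap to the range with a critical value of 0.71. Of 12 sets with any read, 2 were past it. The rate of about 1 in 20 that chance gives is for normally spread values and does not hold for sets made mostly of zeros, where 4 cells at 0 set the ratio to 1. Both concern Rasgrp1, where IL-13 replicate 1 held 4 reads and the other 4 cells 0 (ratio 1), and IL-5 replicate 3 held 43 reads, replicate 2 held 1 and the others 0 (ratio 0.716). No set of Cd3g was past it (0 of 2), since other cells of each group also held reads. Groups of 11 cells were not checked.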

How the results depend on the processing

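No paired analysis was possible because replicate numbers here only name cells, link no cells of different groups, and no test was made.

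On leaving out each cell in turn, the summed chains gave -10.59 to -7.14 (IL-13) and -10.94 to -8.83 (IL-5) for activated against pre-stimulation, -1.62 to 1.98 and -10.12 to -3.69 for silent, -2.96 to 0.92 and -5.83 to -3.22 for 30 min, and -9.31 to -8.61 and -5.35 to -4.95 for activated against silent. Cd3g alone at IL-13 30 min gave -4.16 to 0.44. The IL-13 silent and 30 min values changed sign without pre-stimulation replicate 1, which held 993 of the 1088 reads, and their directions rest on it. For activated against silent cells, no value was computed without IL-5 silent replicate 3, since both groups then lay under the floor. The members lower in activated cells numbered 1 to 3 (IL-13) and 2 to 3 (IL-5).

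On the first title date alone, activated against pre-stimulation gave -8.89 and -9.30, silent 0.18 and -4.47 and IL-5 30 min -3.73, and Thy1 in IL-13 silent cells turned from 2.08 to -1.42. Fewer cells enter these values, and the cause was otherwise not tested. TMM factors gave -10.07 (IL-5 activated), -5.02 (IL-5 silent), -1.96 (IL-13 30 min, inside 4-fold) and -4.56 (IL-5 30 min). DESeq2 size factors gave -1.24 for IL-13 silent, and the mean of the cells' own CPM -0.41 for IL-13 silent, -5.07 for IL-5 silent and -4.66 for IL-5 30 min. With pre-stimulation cells of both indexes together, 4 members were lower in IL-13 activated cells in place of 2, and 2 in IL-5 activated cells in place of 3. Chains were found in 16.7% of cells with at least 5 reads required. Of 249 values of single members under these alternatives, 65 moved outside the counting interval, 1 called value reversed, 233 kept their sign and 16 crossed 4-fold.

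The share of lower among called genes moved by over 10 percentage points in IL-13 silent cells, from 35.6% to 46.3% on the first title date, and in IL-13 activated against silent cells, from 63.2% to 51.8%. In IL-5 activated against silent cells it went from 59.8% to 48.1%, where 1144 genes were higher in place of 653 on the first date. In activated against pre-stimulation cells it went from 45.9% to 56.0% (IL-13) and from 46.1% to 60.6% (IL-5) with a mean of at least 50 CPM. That filter also left 2641 and 2762 genes in place of 5763 and 5828 in activated against pre-stimulation cells, with 542 and 619 lower in place of 1361 and 1439 and 425 and 403 higher in place of 1607 and 1683. Among the 10 genes, those lower in IL-5 activated than silent cells fell from 4 to 2 with TMM or DESeq2 factors, and those lower in IL-5 silent than pre-stimulation cells from 2 to 1 with TMM or on the first date. The floor of 3 reads equals 0.804 to 3.11 CPM by group, and lower levels could not be seen.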
